A study of Mus musculus with 2 samples.

Results

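The genes described here encode the proteins of the cytoplasmic ribosome. They were chosen by symbol alone: every gene of the count tables named Rpl or Rps followed by a number, with Rpsa, Rplp0, Rplp1 and Rplp2, and without pseudogene symbols that hold "-ps". This gave 84 of the 31053 genes listed, 32 of the small subunit and 52 of the large subunit, located on 19 chromosomes of GRCm38 in GENCODE M21. Their expression was followed in single cells of the aortic arch of male Apoe−/− C57BL/6 mice, which lack apolipoprotein E in every cell. Both groups were 16 weeks old. The ND group received a normal diet and served as the control, and the HFD group received a high-fat, high-cholesterol diet for 12 weeks. The cells of 2 aortas were pooled into 1 library per diet, so no difference between diets has a replicate, no p-value is given for one, and diet, library and mice cannot be told apart.

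A ribosome is built from a fixed set of proteins on a scaffold of ribosomal RNA. The small subunit reads the mRNA and the large subunit joins the amino acids, while the stalk proteins Rplp0, Rplp1 and Rplp2 recruit the translation factors. Ribosomal protein mRNAs are abundant, start with a run of pyrimidines known as a 5′ terminal oligopyrimidine tract, and are known to be translated more or less as a group when growth signals change. Lymphocytes are known for a high share of these mRNAs, and some members have a paralog that is used in few tissues.

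The starts of 6 members are shown because their mRNAs carry this tract and because Rps27, Rpl35 and Rpl35a were among the members with the lowest HFD to ND ratios in endothelial cells. Rps21 and Rpl37a, whose ratios were lower than those of Rps27 and Rpl35a, are not shown. Whether the tract goes with the ratio was not tested. Each line gives 30 bases of RefSeq sequence on GRCm38.p6, 15 before the annotated start and 15 from it, and capitals mark the unbroken run of C and T across the start.
Rps27 (chr3:90213634-90213663, minus strand): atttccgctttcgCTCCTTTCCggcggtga
Rpl35 (chr2:39005117-39005146, minus strand): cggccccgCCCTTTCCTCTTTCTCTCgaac
Rpl35a (chr16:33056467-33056496, plus strand): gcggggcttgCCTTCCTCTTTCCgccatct
Rps15a (chr7:118116133-118116162, minus strand): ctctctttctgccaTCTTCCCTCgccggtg
Rpl15 (chr14:18270972-18271001, minus strand): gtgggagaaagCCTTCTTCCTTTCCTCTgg
Rps18 (chr17:33955651-33955680, minus strand): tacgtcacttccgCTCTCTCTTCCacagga

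The runs were 9 bases long in Rps27 and Rps15a, 11 in Rps18, 13 in Rpl35a, 17 in Rpl15 and 18 in Rpl35. RefSeq windows of 300 bases, 250 before the start and 50 after it, were found for 64 of the 84 members, with 76 windows among the 32851 of all genes. A run of at least 8 C or T across the start was present in 22.4% of the members' windows and in 3.86% of all windows. A run of at least 10 within 50 bases on either side of the start was present in 64.5% and 18.1%. The letters CCGGAA, read on both strands, were in 47.4% of the members' windows and 14.9% of all, and TATAAA was in 9.21% and 13.6%. These are counts of letters and not of sites in use.

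The kept ND cells held 27137322 UMIs (counted molecules) and the kept HFD cells 17191279, of which 3624061 and 1764672 were from ribosomal protein genes. That is 13.4% of ND and 10.3% of HFD UMIs. The filter left 5416 of 10234 ND barcodes and 2739 of 14225 HFD barcodes, the cell numbers that the labels also state, with a median of 3732.5 and 5336 UMIs per cell. Of the kept barcode sequences, 1 occurs in both libraries. Cells were assigned to 15 classes by at least 1 UMI of both of 2 marker genes, and 3977 ND and 1996 HFD cells passed exactly 1 gate. Pecam1 and Cdh5 gated endothelial cells, Col3a1 and Pdgfra fibroblasts, C1qa and Csf1r macrophages, and Cd3e and Trbc2 T cells. In these 4 classes, all 32 values of markers outside the gates (4 genes per class and library, such as Egfl7, Lum, Mrc1 and Trac) were higher than in any other class of the same library with at least 10 cells. A further 352 ND and 384 HFD cells passed more than 1 gate and may be doublets, and they were left out.

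Of the 84 members, 83 were counted in the kept cells and 79 had at least 10000 UMIs over both libraries. Rps29 had the most, with 164184 UMIs in ND cells and 89916 in HFD cells. Rpl41, the smallest protein of the ribosome, followed with 134224 and 76047, then Rps27 with 117775 and 43518, Rpl37a with 107213 and 45597, and Rps24 with 102372 and 43850. The 5 members with the most UMIs in each library took 17.3% of ribosomal protein UMIs in ND and 17.0% in HFD cells. A UMI here is a tag of an mRNA's 3′ end and is not divided by length, so the order of genes is one of tags counted.

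At the other end, Rpl10l, a copy known from the testis, had 0 UMIs in both libraries. Rpl3l, known from heart and skeletal muscle, had 12 UMIs in ND and 10 in HFD cells, and Rpl39l, also known from the testis, had 9 and 14. With so few UMIs these genes were not detectable in most classes at this depth. Rpl7l1, which takes part in building the large subunit, had 926 and 602, and Rpl13a had 2107 and 1102. The last 300 bases of Rpl13a transcripts were identical to those of the annotated gene Gm45713, which had 0 UMIs. Across members, 19 of 84 had an alignment of at least 150 bases at 95% identity or more between their last 300 bases and another counted gene, among them Rpl41 (Gm10076, 11544 UMIs), Rps27 (Rps27rt, 5976), Rplp2 (Wdr89, 2986) and Rpl35 (Gm2000, 1513). Reads of such genes may be split between the copies or, where they fit both, not counted at all, so their levels are uncertain. No member's copies together reached 10% of its UMIs, but this does not limit the loss, because uncounted reads are in neither number.

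The share of ribosomal protein UMIs differed more between cell classes than between libraries. B cells had the highest, with 30.1% (exact 95% interval 30.0% to 30.1%) in 479 ND cells. T cells followed with 23.8% (23.7% to 23.9%) in 156 ND cells and 20.9% (20.7% to 21.1%) in 23 HFD cells, and natural killer cells had 23.6% (23.2% to 24.1%) in 10 ND cells. Cd209a dendritic cells had 21.8% in 10 ND and 19.0% in 19 HFD cells, and monocytes had 15.5% in 29 and 13.8% in 14. These intervals and all others below cover counting error only, and the natural killer and dendritic values rest on so few cells that neighbouring classes in this order cannot be separated.

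Macrophages, fibroblasts and endothelial cells lay close together. Macrophages had 12.2% in 313 ND cells and 11.4% in 395 HFD cells, fibroblasts 11.5% in 628 and 12.1% in 309, and endothelial cells 10.9% in 2117 and 8.77% in 1125. Their order differed between the libraries, with macrophages first in ND and fibroblasts first in HFD. Smooth muscle cells had 7.91% in 34 ND cells, adipocytes 7.996% in 22, club cells, a lung airway type, 8.65% in 54, and glia 6.14% in 20. Mesothelial cells had 7.48% in 19 ND and 7.74% in 22 HFD cells.

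Neutrophils and erythroid cells were lowest. Neutrophils had 3.98% (3.88% to 4.07%) in 75 ND cells. Erythroid cells had 5.30% in 11 ND and 3.13% in 57 HFD cells, and haemoglobin genes took 62.0% and 49.7% of their UMIs. Without mitochondrial and haemoglobin UMIs in the denominator, erythroid cells were at 24.3% and 11.3% and neutrophils at 5.19%. Free RNA in the droplets adds the same mixture to every cell, and its part in these shares was not tested.

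**Figure D1:**
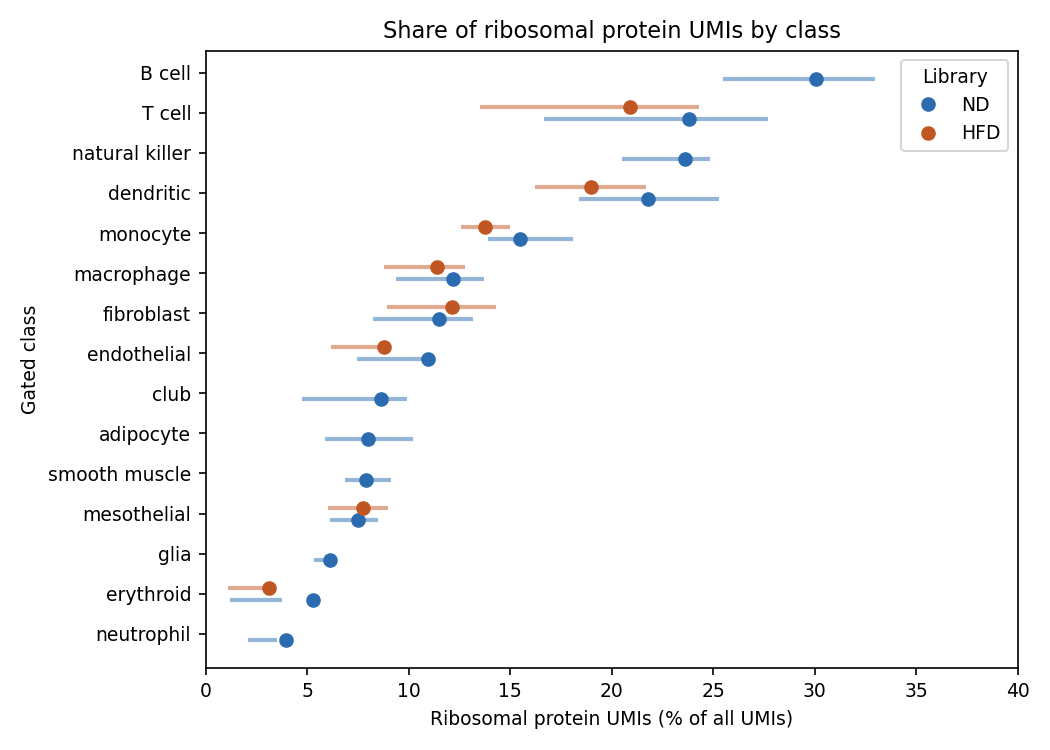
Share of ribosomal protein UMIs (percent of all UMIs, horizontal axis) in each gated class with at least 10 cells, for the ND (blue) and HFD (orange) library. Points are UMIs summed over cells, and bars span the lower to the upper quartile of single cells. B, T and natural killer cells lie between 20.9% and 30.1%, endothelial cells, fibroblasts and macrophages between 8.77% and 12.2%.

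Single cells followed the sums. The lower and the upper quartile of ND cells ran from 25.5% to 33.0% in B cells and from 16.6% to 27.7% in T cells, against 7.47% to 11.2% in endothelial cells, so these ranges did not overlap. In HFD cells the range was 13.5% to 24.3% in T cells and 6.17% to 8.70% in endothelial cells. Both subunits contributed in similar parts. Small subunit genes took 45.3% of ribosomal protein UMIs in ND endothelial cells, 47.1% in ND T cells and 46.7% in ND B cells, and from 41.2% in glia to 49.2% in neutrophils over the ND classes.

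The order of members was much alike in the classes. Over the 81 members with at least 100 UMIs in ND endothelial cells, Spearman's rho between the UMIs of ND endothelial cells and those of the other groups was 0.97 in HFD endothelial cells, 0.96 in ND fibroblasts, 0.96 in ND macrophages, 0.94 in ND T cells and 0.94 in ND B cells, and it was lowest, at 0.89, in the 23 HFD T cells. Groups of 1 library share that library's preparation and depth.

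To compare classes over both libraries, UMIs were summed per class and library for the 4 classes with at least 20 cells in each library, and each class was set against endothelial cells by edgeR's quasi-likelihood test with library as a term. The error is then the spread between 2 libraries that differ in diet, and no label says more about replication. Of 11880 genes tested, 81 were members. Log2 differences are on the TMM scale, and adjusted p-values are by the Benjamini-Hochberg method over all genes tested. The T cell contrast was added once the numbers of cells had been seen.

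T cells had a higher value than endothelial cells for 79 of the 81 members. In T cells, 59 of 81 members were higher than in endothelial cells past an adjusted p of 0.05 and none lower, where 11.1% of all genes tested were higher and 17.4% lower. The median log2 difference was 1.07 for members and -0.28 for all genes. It was 1.18 in ND and 0.97 in HFD cells taken alone. Other features moved with the HFD T cells. Their median was 6506 UMIs per cell, against 2643.5 in ND T cells. Of 23 cells, 14 had UMIs of both Mki67 and Top2a, markers of dividing cells, against 11 of 156 in ND. The summed CPM (counts per 1000000 UMIs of the same cells) of 3 erythroid markers was 3988 in HFD against 121 in ND T cells, that of 3 dendritic cell markers 1846 against 125, and that of 3 B cell markers 426 against 93.7. For 3 natural killer markers it was 1278 against 735, and for the 4 T cell markers 1315 against 1908. The share of ribosomal protein UMIs was 24.8% in dividing and 23.6% in other ND T cells, and 20.1% in the 14 dividing HFD T cells, and the other HFD T cells were too few for a value. The part of depth, of dividing cells and of RNA from other cell types was not tested.

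Rpl12, a large subunit protein at the base of the stalk, differed most. It was at 1762 CPM in ND and 1636 CPM in HFD T cells, against 423 and 406 CPM in endothelial cells, a log2 difference of 1.93 ± 0.32 (SE, adjusted p = 0.000812, edgeR). Rpsa, a small subunit protein also known as a laminin receptor, was at 4480 and 4649 CPM against 1099 and 1165 (1.90 ± 0.33, adjusted p = 0.00103, edgeR). Rpl10a was at 1997 and 2161 CPM against 625 and 606, and Rpl32 at 3266 and 3574 CPM against 1103 and 938, with log2 differences of 1.64 and 1.63. For all 4 genes both T cell values lay above both endothelial values.

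The smallest differences past the threshold were those of Rps20 (0.99), Rpl28 (0.96), Rps15 (0.94) and Rpl34 (0.93), with adjusted p between 0.0369 and 0.0487 by edgeR. These 4 calls were lost under at least 1 other setting. Of the stalk genes, Rplp0 was at 3536 and 3803 CPM in T cells against 1164 and 1102 (1.58 ± 0.32, adjusted p = 0.00299, edgeR), and Rplp2 at 2551 and 2309 CPM against 999 and 923 (1.24 ± 0.32, adjusted p = 0.0135, edgeR). Rplp1 was at 4559 and 3148 CPM against 1887 and 1787 and did not pass (0.96 ± 0.35, adjusted p = 0.0623, edgeR).

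Rps27 stood apart between the T cell libraries. It was at 8862 CPM in ND and 3889 CPM in HFD T cells, against 3716 and 2445 CPM in endothelial cells, and did not pass (0.92 ± 0.39, adjusted p = 0.103, edgeR). It was chosen for this remark after its values were seen. Members without a higher value in T cells were Rps27l, with a log2 difference of -0.35 ± 0.33 (adjusted p = 0.467, edgeR), and Rpl7l1, with -0.42 ± 0.39 (adjusted p = 0.465, edgeR). In both genes the ND library gave a lower and the HFD library a higher value in T cells.

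Macrophages had a higher value for all 81 members, but few passed. In macrophages, 6 of 81 members were higher past the threshold and none lower, where 18.8% of all genes tested were higher and 21.0% lower, so the members' share of calls was below that of all genes. The median log2 difference was 0.47 for members and -0.08 for all genes, with 0.35 in ND and 0.61 in HFD cells alone. By library totals without TMM factors the members' median was 0.22, and 72 of 81 were positive.

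The 4 largest differences in macrophages came from both subunits. Rpl36al, the paralog of Rpl36a, was at 264 CPM in ND and 325 CPM in HFD macrophages, against 158 and 173 in endothelial cells (1.08 ± 0.28, adjusted p = 0.00819, edgeR). Rps29, a small zinc-binding protein of the small subunit, was at 8859 and 7618 CPM against 5289 and 4320 (1.04 ± 0.34, adjusted p = 0.0318, edgeR). Rpl10, one of the last proteins to join the large subunit, was at 1460 and 1195 CPM against 865 and 720 (0.999 ± 0.31, adjusted p = 0.0219, edgeR). Rps9 was at 2516 and 2139 CPM against 1555 and 1284 (0.97 ± 0.32, adjusted p = 0.03, edgeR).

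The other calls in macrophages were Rpl10a (0.95, adjusted p = 0.0311, edgeR) and Rps28 (0.93, adjusted p = 0.045, edgeR). Rpl10 and Rps29, which passed here, did not pass in T cells, with log2 differences of 0.54 ± 0.31 and 0.75 ± 0.34 (adjusted p = 0.217 and 0.126, edgeR). In CPM the 2 classes were close. Rps29 was at 9893 in ND and 7538 in HFD T cells, against 8859 and 7618 in macrophages, and Rpl10 at 1373 and 1117 against 1460 and 1195. The log2 differences also hold the TMM factors, 0.995 in ND and 1.23 in HFD T cells against 0.878 and 0.828 in macrophages. The difference between the macrophage and T cell contrasts was not tested. With DESeq2 the number of members called was 29 in macrophages, with cells of more than 1 gate kept 30, and with at most 20% mitochondrial UMIs 3. At that limit Rps9, Rpl10a and Rps28 lost their calls (adjusted p = 0.0684, 0.0589 and 0.0731, edgeR).

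Fibroblasts differed little from endothelial cells in these genes, and mainly in the HFD library. In fibroblasts, 1 of 81 members was higher past the threshold and none lower, where 17.3% of all genes tested were higher and 18.1% lower. The gene was Rpl22l1, the paralog of Rpl22, at 773 CPM in ND and 708 CPM in HFD fibroblasts against 446 and 326 CPM in endothelial cells (0.92 ± 0.33, adjusted p = 0.0485, edgeR). Its call was lost without the filter on low counts, without the library term and with at most 20% mitochondrial UMIs (adjusted p = 0.0534, 0.0565 and 0.0728, edgeR). The members' median was 0.24, and all genes' -0.04. In the ND library alone the members' median was -0.01, and in the HFD library alone it was 0.51.

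**Figure D2:**
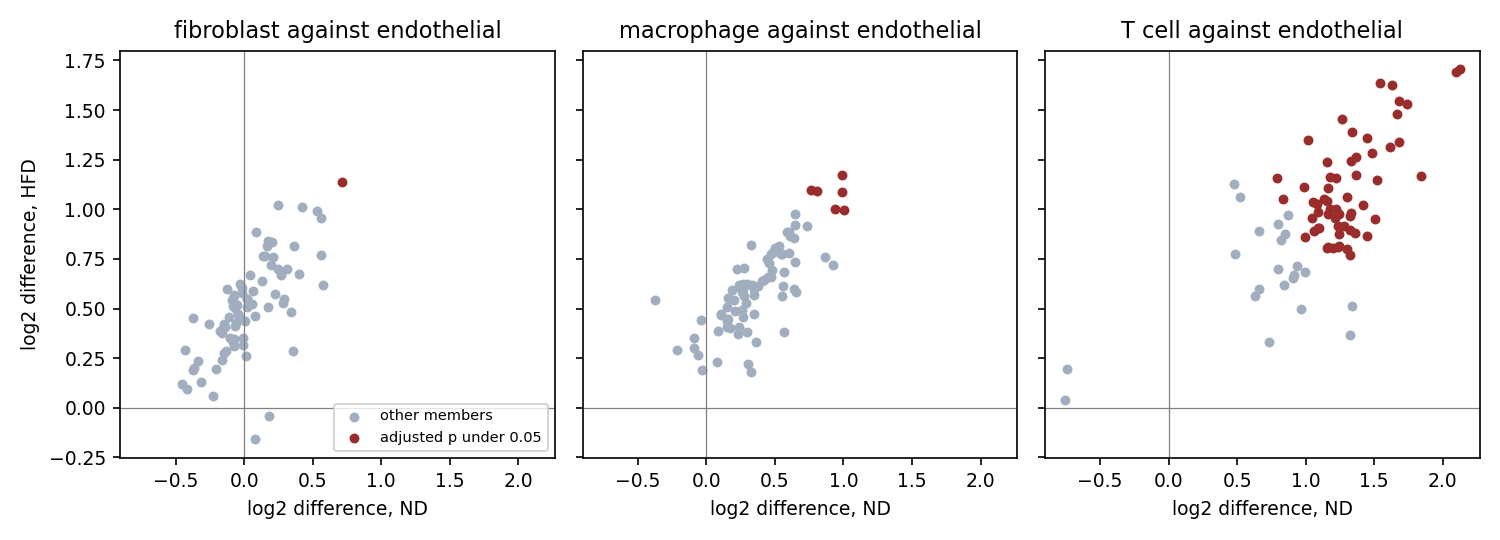
Log2 difference of each of 81 ribosomal protein genes between a class and endothelial cells, in ND cells (horizontal axis) and HFD cells (vertical axis), for fibroblasts, macrophages and T cells. Red points passed an adjusted p of 0.05 in edgeR: 1 member in fibroblasts, 6 in macrophages and 59 in T cells. Fibroblast points centre near -0.01 in ND and 0.51 in HFD.

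Lists of other translation genes were set beside the members, without a test of the list. Their counts are to be read against the shares of all genes tested that were higher, 11.1% in T cells, 18.8% in macrophages and 17.3% in fibroblasts, and those that were lower, 17.4%, 21.0% and 18.1%. Fau encodes a ribosomal protein fused to a ubiquitin-like protein, and Rack1 sits on the small subunit. Both were higher past the threshold in macrophages, Fau (1.005 ± 0.35, adjusted p = 0.0379, edgeR) and Rack1 (0.99 ± 0.32, adjusted p = 0.028, edgeR). In T cells Rack1 also passed (1.36 ± 0.33, adjusted p = 0.00839, edgeR). Fau had a similar difference there but did not pass (0.99 ± 0.35, adjusted p = 0.0524, edgeR). Neither passed in fibroblasts. Of 7 elongation factor genes tested, 4 were higher in T cells (Eef1b2, Eif5a, Eef1g and Eef1d), with 0 of 7 in macrophages and in fibroblasts. Eef1a1, the factor that delivers aminoacyl-tRNA, was at 4182 and 3963 CPM in T cells against 2649 and 2564 and did not pass (0.54 ± 0.32, adjusted p = 0.245, edgeR).

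Genes of ribosome biogenesis were higher in T cells for 8 of 30 tested, led by Wdr12 (2.001 ± 0.42, adjusted p = 0.00415, edgeR), Nob1 (1.54), Nhp2 (1.53) and the methyltransferase of ribosomal RNA, Fbl (1.44), and lower for none. These 4 rest on few T cell UMIs: 17 in ND and 6 in HFD for Wdr12, 17 and 8 for Nob1, 34 and 24 for Nhp2, and 44 and 23 for Fbl. In macrophages 2 were higher and 2 lower, and in fibroblasts 3 and 2. Of 13 genes of the initiation factor eIF3, 2 were higher in T cells and none in macrophages or fibroblasts. Of 10 further genes known for a terminal oligopyrimidine tract, 4 were higher and 2 lower in T cells, 1 was lower in macrophages and none passed in fibroblasts. The mitochondrial ribosome is a separate set of proteins: of 77 genes tested, 5 were higher and 4 lower in T cells, 12 higher and 2 lower in macrophages, and 2 higher and 2 lower in fibroblasts.

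Between the diets, ribosomal protein genes took a smaller share of endothelial UMIs in the HFD library. The share was 10.9% in ND and 8.77% in HFD endothelial cells, a log2 ratio of -0.32 (-0.32 to -0.31). The small subunit gave -0.33 and the large subunit -0.31. The median ratio over genes with at least 10 UMIs in each library, called the scaling median here, was -0.09. In fibroblasts the share was 11.5% in ND and 12.1% in HFD, a log2 ratio of 0.08 (0.07 to 0.09) that turned to -0.00797 with 2 UMIs per gate gene and to -0.0107 with cells of more than 1 gate kept. In macrophages the share was 12.2% and 11.4%, a log2 ratio of -0.10 (-0.10 to -0.09). Relative to the scaling median, which was -0.13 in fibroblasts and -0.14 in macrophages, the values were 0.21 and 0.04. The direction in macrophages thus flipped with the scaling. In T cells the share was 23.8% and 20.9% (log2 ratio -0.19, or -0.50 relative to a scaling median of 0.31). Medians of all genes given with single members below are over genes with at least 100 UMIs over both libraries and 4 in each.

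Mitochondrial UMIs moved with this difference. They took 13.4% of endothelial UMIs in ND and 19.4% in HFD, 12.8% and 20.6% in fibroblasts, and 15.7% and 18.4% in macrophages. Among ND endothelial cells the ribosomal protein share was 13.2% in cells with under 10% mitochondrial UMIs, 10.3% at 10% to 20% and 8.01% at 20% to 30%. Among HFD endothelial cells it was 14.2%, 9.41% and 7.24% in the same bins, which held 42, 352 and 731 cells. HFD was thus lower than ND in the 10% to 20% and 20% to 30% bins, and higher only in the lowest. With HFD endothelial cells weighted to the mitochondrial shares of ND cells, the HFD share was 10.7% and the log2 ratio -0.03. This weighting gave more weight to the 42 HFD cells under 10%. Those cells had a median of 15546 UMIs, against 9330 in the 373 ND cells of that bin. The same weighting gave 0.30 in fibroblasts and -0.02 in macrophages. The summed CPM of erythroid markers was 778 in ND and 2343 in HFD endothelial cells, 207 and 2106 in fibroblasts, and 723 and 380 in macrophages. That of 3 monocyte markers was 48.2 and 196 in endothelial cells. Their part was not tested.

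**Figure D3:**
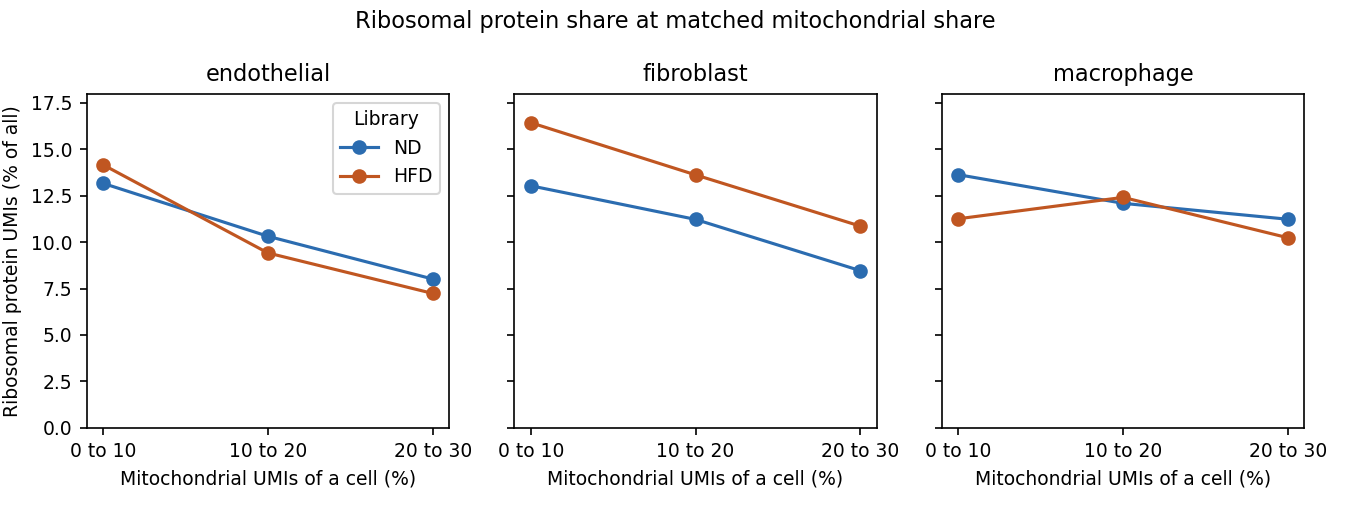
Ribosomal protein UMIs (percent of all UMIs, vertical axis) in endothelial cells, fibroblasts and macrophages grouped by the mitochondrial share of each cell (horizontal axis, 3 bins), in the ND (blue) and HFD (orange) library. Endothelial values run from 13.2% to 8.01% in ND and from 14.2% to 7.24% in HFD. The lowest HFD bins of fibroblasts and macrophages hold 6 and 14 cells.

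Single members in endothelial cells shared the direction. Of 81 members with enough UMIs, 76 were lower and 5 higher in HFD. Relative to the scaling median 12 were higher, and relative to ribosomal protein UMIs 45 were. The members' median log2 ratio was -0.29, against -0.10 for all 9450 genes with enough UMIs. At least 1.5-fold lower were 5 of 81 members, where 11.2% of all genes were, and 0 members were at least 1.5-fold higher, where 5.01% of all genes were. Rps21, which was lowest, was at 2688 CPM in ND and 1630 CPM in HFD cells (log2 ratio -0.72, -0.75 to -0.69). Rpl35, at the exit of the peptide tunnel, was at 1188 and 750 CPM (-0.66), Rpl37a at 3285 and 2156 CPM (-0.61), Rps27 at 3716 and 2445 CPM (-0.60), and Rpl35a at 2339 and 1547 CPM (-0.60). Relative to ribosomal protein UMIs alone, no member was 1.5-fold lower.

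Rps2, a small subunit protein at the mRNA entry, went the other way in endothelial cells, at 1256 CPM in ND and 1612 CPM in HFD (0.36, 0.32 to 0.40). Rps27l was at 230 and 264 CPM (0.20, 0.11 to 0.29) and Rpl36al at 158 and 173 CPM (0.14, 0.03 to 0.24). The interval of each of these 3 ratios lay above 0, on the counting error of 1 library per diet.

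In fibroblasts 63 of 81 members were higher and 18 lower in HFD, with a median of 0.09 against -0.15 for all 5462 genes. The number of members higher was 76 relative to the scaling median, 45 relative to ribosomal protein UMIs and 47 with 2 UMIs per gate gene. None was at least 1.5-fold higher or lower, where 4.14% and 12.7% of all genes were. The highest were Rpl29 at 596 and 773 CPM (0.37), Rps18 at 1178 and 1520 CPM (0.37) and Rpl13a at 63.9 and 82.3 CPM (0.36, 0.02 to 0.71). The lowest were Rpl7l1 at 42.6 and 32.4 CPM (-0.40, with an interval of -0.91 to 0.10 that holds 0), Rpl35 at 1488 and 1200 CPM (-0.31) and Rpl10 at 1156 and 993 CPM (-0.22).

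In macrophages 26 of 81 members were higher and 55 lower in HFD, with a median of -0.09, the same as the -0.09 of all 4684 genes. Relative to the scaling median of -0.14, however, 53 members were higher. None was at least 1.5-fold higher or lower, where 8.33% and 13.9% of all genes were. The lowest were Rps15 at 646 and 480 CPM (-0.43), Rps27 at 3072 and 2314 CPM (-0.41) and Rpl35a at 2874 and 2200 CPM (-0.39). The highest were Rpl22l1 at 290 and 395 CPM (0.45, 0.29 to 0.61), Rpl7l1 at 30.0 and 39.1 CPM (0.38, with an interval of -0.13 to 0.91 that holds 0) and Rpl36al at 264 and 325 CPM (0.30, 0.13 to 0.47). No member was at least 1.5-fold different in the same direction in all 3 classes.

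**Figure D4:**
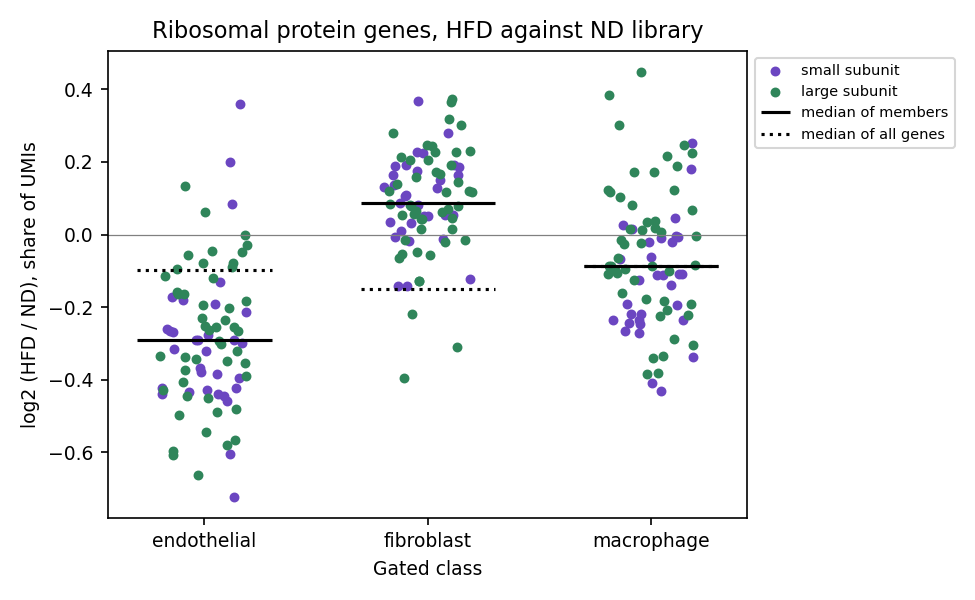
Log2 ratio of HFD to ND (vertical axis) for each of 81 ribosomal protein genes in endothelial cells, fibroblasts and macrophages, with small subunit genes in purple and large subunit genes in green. Solid lines are medians of members (-0.29, 0.09 and -0.09) and dotted lines medians of all genes (-0.10, -0.15 and -0.09, the last hidden by the solid line). Relative to the scaling median of -0.14, which is not drawn, most macrophage members (53 of 81) lie above 0. Positions along the horizontal axis within a class are spread at random.

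Other translation genes did not all share the endothelial direction. Of the 30 ribosome biogenesis genes, 7 were at least 1.5-fold higher and none lower in HFD endothelial cells (5.01% and 11.2% of all genes), with a median of 0.24, and the 75 mitochondrial ribosomal genes with enough UMIs had a median of 0.08. Elongation factors had a median of -0.11, eIF3 genes of -0.02 and the further oligopyrimidine genes of -0.12. Fau and Rack1 shared the members' direction. Fau was at 2399 CPM in ND and 1674 CPM in HFD endothelial cells, and Rack1 at 491 and 440 CPM. In macrophages 13 of 49 mitochondrial ribosomal genes were at least 1.5-fold higher and none lower (8.33% and 13.9% of all genes), with a median of 0.49. Fibroblasts went the other way, with 0 of 52 higher and 6 lower (4.14% and 12.7% of all genes) and a median of -0.20.

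The paralogs divided the classes in another way than the members as a whole. Rpl22l1 and Rpl22 share a place in the large subunit, and Rpl22 is known to lower its paralog. Rpl22l1 took 33.2% (32.4% to 33.9%) of the UMIs of the pair in ND and 32.5% (31.4% to 33.6%) in HFD endothelial cells. In fibroblasts it took 45.98% (44.5% to 47.4%) and 42.7% (40.8% to 44.7%), and in ND smooth muscle cells 52.4% (45.7% to 59.1%). In ND macrophages it took 23.1% (21.3% to 25.1%), and in HFD macrophages 31.7% (30.2% to 33.3%). T cells, with 35.3% and 34.4%, and ND B cells, with 31.1%, were near endothelial cells, although both genes had more CPM there: Rpl22l1 was at 993 and 895 CPM and Rpl22 at 1818 and 1704 CPM in T cells (log2 difference to endothelial cells 1.20 and 1.06, adjusted p = 0.0191 and 0.0255, edgeR).

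Rpl36al, whose protein is nearly the same as that of Rpl36a, took 20.7% (19.9% to 21.6%) of its pair in ND and 26.8% (25.5% to 28.1%) in HFD endothelial cells. It took 30.1% (27.6% to 32.6%) in ND and 37.6% (35.6% to 39.5%) in HFD macrophages. Fibroblasts had 23.8% and 25.7%, T cells 22.1% and 25.4%, ND B cells 19.2% and ND club cells 37.5%. The share was thus higher in macrophages than in endothelial cells in both libraries, and higher in HFD than in ND in both classes, beyond counting error. Both genes have near-identical copies at their 3′ ends, Gm49383 (0 UMIs) for Rpl36al and Rpl36a-ps1 (288 UMIs) for Rpl36a. The level of each gene, and so the share of the pair, is therefore uncertain, and the part of these copies was not tested.

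Rps27l, known as a target of p53, took 5.84% (5.62% to 6.06%) of the pair with Rps27 in ND and 9.76% (9.34% to 10.2%) in HFD endothelial cells. In ND T cells it took 1.44% (1.10% to 1.84%) and in ND B cells 1.54% (1.38% to 1.71%), but in HFD T cells 7.89% (5.99% to 10.2%). It was highest in ND adipocytes, with 23.7% (20.7% to 26.9%), and in mesothelial cells, with 17.8% and 21.8%. In fibroblasts the libraries were alike, with 8.28% and 8.37%. Rps27l itself was at 230 and 264 CPM in endothelial cells and at 276 and 253 CPM in fibroblasts, while Rps27 was at 3716 and 2445 CPM in endothelial cells and at 11022 CPM in ND B cells.

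Rpl7l1 took 4.02% (3.65% to 4.41%) of the pair with Rpl7 in ND and 5.57% (4.93% to 6.27%) in HFD endothelial cells, and 1.44% (1.09% to 1.87%) in ND B cells. Rpl3l took 0.045% of the pair with Rpl3 in ND and 0.0716% in HFD cells over all classes, and Rpl39l 0.00904% and 0.0316% of the pair with Rpl39. Rps4x, the X-linked small subunit gene, was 1.10 ± 0.32 higher in T cells on the log2 scale (adjusted p = 0.0248, edgeR).

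**Figure D5:**
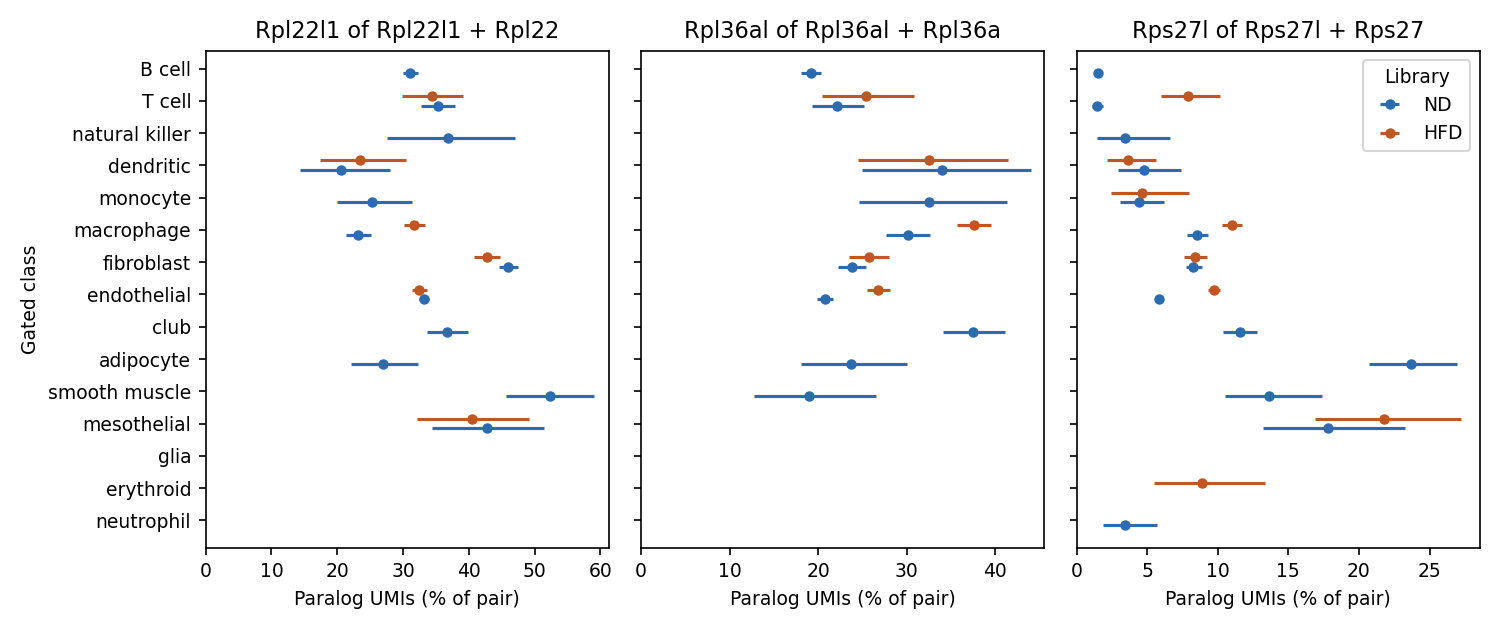
Paralog UMIs as a percent of the UMIs of paralog and partner (horizontal axes, with exact 95% intervals) for Rpl22l1, Rpl36al and Rps27l in each class and library with at least 100 UMIs of the pair. The order of classes is that of the plot of shares. Rpl22l1 ranges from 20.5% to 52.4%, Rpl36al from 19.0% to 37.6% and Rps27l from 1.44% to 23.7%.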

How the data were processed

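Single-cell RNA sequencing was done on 1 library per diet, ND and HFD. The authors deposited raw UMI counts per gene and barcode without normalization. The file headers name Cell Ranger software 3.0.1, and the submitters' processing notes name mm10. The joined counts of both libraries were not used.

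Barcodes were kept with at least 200 genes, 200 UMIs and at most 30% mitochondrial UMIs. No doublet caller was run. Cells of exactly 1 of 15 gates were summed per class and library. Intervals are exact at 95% (Clopper-Pearson for shares, conditional binomial for ratios). A diet ratio of a gene was read from a sum of 100 UMIs over ND and HFD, and 4 per library. Classes were compared with edgeR 4.0.16 in R 4.3.3 (filterByExpr, TMM, library and class as terms, 3 residual degrees of freedom). The SE is the log2 difference over the square root of F. On simulated data for macrophages against endothelial cells, 200 of 11381 genes were changed. Of these changes, 57% of 2-fold and 98% of 4-fold ones were found, with 10 unchanged genes among 165 called. In the data themselves 18.8% of genes were called higher and 21.0% lower, so these rates may not hold there. Members and lists were chosen with earlier results of these data known. Named were the 4 largest and 4 smallest calls per class, the 3 highest and 3 lowest diet ratios per class, the members with the most and fewest UMIs, and the paralogs, Rpsa and stalk genes. Rps4l is not analysed here. A further gene of the fixed lists is not reported here. Similar 3′ ends were found with blastn, at limits set after the data were seen.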

Additional observations from a re-analysis of the deposited data

Results flagged for a closer look

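The share of ribosomal protein UMIs had a log2 HFD to ND ratio of -0.32 in endothelial cells and 0.08 in fibroblasts, which are opposite directions and differ by -0.40. With 1 library per diet this difference was not tested. The fibroblast ratio changed sign under 2 other settings, and the endothelial ratio was -0.03 when HFD cells were weighted to the mitochondrial shares of ND cells. By bins of mitochondrial UMIs, the endothelial share was 9.41% in HFD against 10.3% in ND at 10% to 20%, and 7.24% against 8.01% at 20% to 30%. Under 10% it was higher in HFD, with 14.2% against 13.2%. The part of mitochondrial UMIs was not tested.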

How the results depend on the processing

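Diet ratios are log2 HFD to ND of the ribosomal protein share. In endothelial cells the ratio of -0.32 was lower in HFD under all 9 alternatives: -0.36 with 2 UMIs per gate gene, -0.38 with cells of more than 1 gate, -0.16 at 20% mitochondrial UMIs, -0.21 without mitochondrial and haemoglobin UMIs, -0.23 scaled by the median of ratios, -0.28 as a mean over cells, -0.31 without the deepest 5% of cells, -0.39 at 2000 to 8000 UMIs and -0.025 weighted to ND mitochondrial shares. In fibroblasts it was 0.08, reversed to -0.00797 with 2 UMIs per gate gene and to -0.0107 with cells of more than 1 gate, and was 0.24 at 20% mitochondrial UMIs, 0.22 without mitochondrial and haemoglobin UMIs, 0.21 by median scaling, 0.0655 without the deepest cells and 0.30 weighted. In macrophages it was -0.10, reversed to 0.0417 by median scaling, and was -0.18 with cells of more than 1 gate, -0.0279 at 20%, -0.0495 without mitochondrial and haemoglobin UMIs, -0.16 at 2000 to 8000 UMIs and -0.0249 weighted. In T cells it was -0.19, with -0.15, -0.34 and -0.13 for the first 3 alternatives, -0.50 by median scaling, -0.23 over cells, -0.48 at 2000 to 8000 UMIs and -0.21 weighted. The causes were not tested. Members called higher in fibroblasts were 1, and 3 with RLE factors, 5 with library totals, 0 without the filter, 0 without the library term, 15 with DESeq2, 5 with cells of more than 1 gate and 0 at 20% mitochondrial UMIs. In macrophages they were 6, and 29 with DESeq2, 10 with 2 UMIs per gate gene, 30 with cells of more than 1 gate and 3 at 20%. In T cells the count of 59 ran from 49 to 78. One library alone gave member medians of -0.0129 to 0.51 in fibroblasts, where ND alone reversed the sign, 0.35 to 0.61 in macrophages and 0.97 to 1.18 in T cells, with 0.22 in macrophages by library totals and 0.88 in T cells with cells of more than 1 gate. Endothelial members at least 1.5-fold lower in HFD were 5, 0 within ribosomal protein UMIs and 1 by median scaling. For the genes named from the class contrasts, 16 of 120 values lost the call and none changed sign. Over all barcodes, removed ones included, Rpl22l1 was at 494 CPM in ND and 259 CPM in HFD, with 556 and 413 CPM in kept cells. At 20% mitochondrial UMIs, 9 HFD T cells remained. No paired analysis of the diets was possible, because each diet has 1 library and the libraries come from different mice.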
